A study of Homo sapiens with 6 samples.

Results

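Polycomb CBX and PHC paralogs were taken by gene symbol from the deposited count table: CBX2, CBX6, CBX7, CBX8, PHC1, PHC2 and PHC3, 7 of the 53712 genes listed. All 7 passed the filter on low counts, as did 16873 genes in all. They were followed in H9 cells, an established line of human embryonic stem cells cultured in PXGL medium and called naive by the labels. Cells received 25 nM of an oligonucleotide of LINE-1, a retrotransposon still active in the human genome, either in the sense orientation (SO-L1, the control group) or in the antisense orientation (ASO-L1). Both groups also had 0.7 µM trans-ISRIB, an inhibitor of the integrated stress response, 5 µM of the caspase inhibitor emricasan and 10 µM of the ROCK inhibitor Y-27632, which were washed out after 24 hours. RNA was taken at 48 hours from cells that were not sorted for uptake, and 200 ng per sample went into poly(A)-selected, directional libraries. Each group had 3 libraries, numbered 1 to 3 in both. Whether these libraries came from separate cultures is not stated in the labels, and the spread behind each p-value may therefore be technical. The series' title places the comparison in work on LINE-1 and PRC2.

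Polycomb repressive complex 1 (PRC1) compacts chromatin and places ubiquitin on histone H2A. In its canonical form a CBX protein reads the trimethylated lysine on histone H3 that PRC2 writes, and a PHC protein joins complexes to one another through its SAM domain. The paralogs take each other's place in the complex: in pluripotent stem cells CBX7 is known as a leading reader, while CBX2 and CBX8 are known to come up during differentiation. CBX6 is the least studied of the group, and PHC1 is the PHC paralog usually named as abundant in pluripotent cells.

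Within this family the paralogs did not move together. CBX7 fell by 1.11 on the log2 scale, from 4.59 to 2.12 CPM, and PHC3 fell by 0.38. CBX8 rose by 1.0 and PHC2 by 0.88. CBX2, CBX6 and PHC1 were not called. In numbers, 2 of the 7 genes were called higher and 2 lower (edgeR quasi-likelihood test, Benjamini-Hochberg adjusted p under 0.05, the rule used for every call here). Over all tested genes 33.7% were called, 18.0% higher and 15.7% lower. The median log2 fold change of the 7 genes was -0.13, beside -0.01 over all tested genes. The 3 libraries of one group lay wholly above or below those of the other for 5 of the 7, and for 50.9% of all tested genes. Levels are in CPM, read counts scaled to a common library size with TMM factors, given as mean ± SD over 3 libraries, and log2 fold changes are ASO-L1 over SO-L1 with their standard errors (SE).

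**Figure D1:**
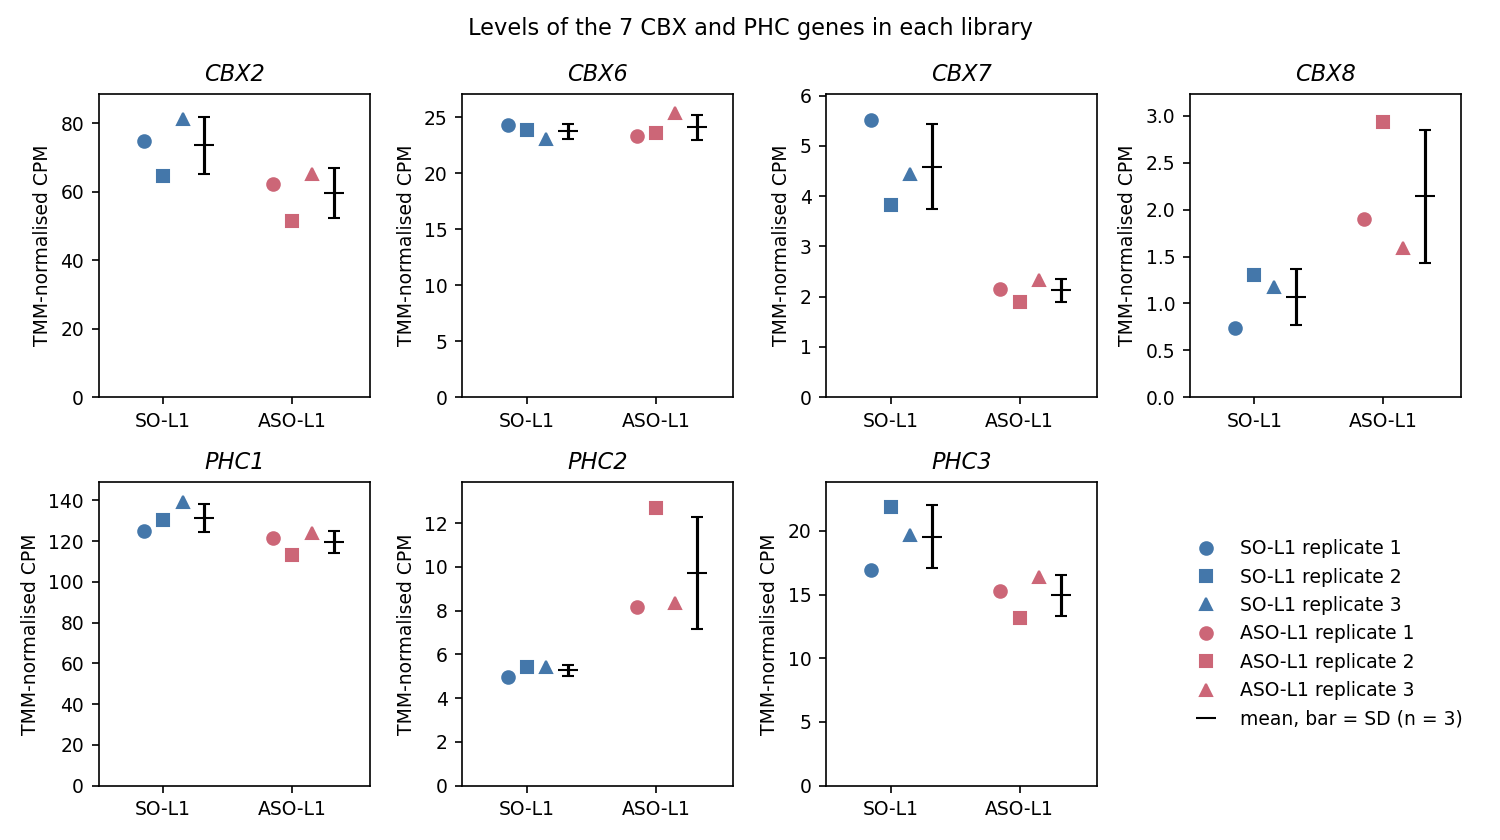
CPM of each of the 7 paralogs in the 3 SO-L1 and the 3 ASO-L1 libraries, on linear axes that start at 0 with a scale of their own for each gene. Points are libraries, with the shape giving the replicate number, and the black marks are the mean and SD of 3. CBX7 and PHC3 lie lower in ASO-L1 and CBX8 and PHC2 higher, without overlap, while the CBX6 points of both groups lie between 23.1 and 25.4 CPM.

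CBX7, the chromodomain reader on chromosome 22, had 5.50, 3.82 and 4.44 CPM in SO-L1 libraries 1 to 3 and 2.15, 1.89 and 2.34 CPM in ASO-L1 libraries 1 to 3. The highest ASO-L1 library was well under the lowest control library. The mean went from 4.59 ± 0.850 to 2.12 ± 0.227 CPM. This log2 fold change was -1.11 ± 0.19 SE (95% interval -1.53 to -0.69), with an adjusted p of 0.00297 by edgeR. By replicate number the log2 differences were -1.33, -0.99 and -0.90. These levels rest on 94 to 172 reads per control library and 43 to 72 reads per ASO-L1 library. The call was lost under 1 of the alternatives, without both libraries of replicate 1, where the adjusted p was 0.0577.

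CBX8, a paralog encoded on chromosome 17 beside CBX2, had 0.736, 1.3 and 1.17 CPM in the control libraries and 1.90, 2.94 and 1.59 CPM in the ASO-L1 libraries. All ASO-L1 libraries were above all controls, with the second ASO-L1 library highest. The mean rose from 1.07 ± 0.297 to 2.14 ± 0.706 CPM, with a log2 fold change of 1.0 ± 0.30 SE (95% interval 0.33 to 1.67, edgeR adjusted p = 0.0283). The gene had few reads, 23 to 36 in the controls and 46 to 67 in ASO-L1, and its call changed when single libraries were left out. It was lost without SO-L1 library 1 (edgeR adjusted p = 0.117), SO-L1 library 3 (0.0681) or ASO-L1 library 2 (0.0781). Those fits called fewer genes in general: 18.6%, 17.5% and 27.9% of all tested genes, against 33.7% with all libraries. Calls of other genes lost in the same fits stand beside the same shares.

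CBX2, which compacts nucleosomes through a charged stretch as well as reading the mark, had 74.7, 64.7 and 81.3 CPM in the controls and 62.4, 51.4 and 65.3 CPM in ASO-L1. The groups overlapped, since ASO-L1 library 3 lay just above control library 2. The log2 fold change was -0.30 ± 0.11 SE (95% interval -0.54 to -0.06) and did not pass the threshold (edgeR adjusted p = 0.0519). With the replicate number as a block it was called lower at the same size (edgeR adjusted p = 0.00107), and the differences by number were -0.26, -0.33 and -0.32. It also passed without SO-L1 library 2 (edgeR adjusted p = 0.0265) or ASO-L1 library 3 (0.0349), and with DESeq2 (0.0383), upper quartile factors (0.0399), library totals alone (0.0347) or no filter (0.00238).

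CBX6, likewise a chromodomain paralog, had 24.3, 23.8 and 23.1 CPM in the controls and 23.3, 23.6 and 25.4 CPM in ASO-L1. The libraries of both groups were interleaved. The log2 fold change was 0.02 ± 0.08 SE with a 95% interval of -0.16 to 0.20 (edgeR adjusted p = 0.850), and its sign turned under other scalings and left-out libraries without a call.

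PHC1, one of the SAM-domain subunits, had 125, 130 and 139 CPM in the controls and 121, 113 and 124 CPM in ASO-L1. The groups did not overlap, but ASO-L1 library 3 and control library 1 nearly touched. The log2 fold change was -0.13 ± 0.07 SE (95% interval -0.28 to 0.01) and was not called (edgeR adjusted p = 0.144). PHC1 shares 40.7% of its 50-base words with transcripts of the pseudogene PHC1P1 in GENCODE v29. How such reads were assigned is not given in the sources used here, and PHC1P1 itself held 717 reads over the 6 libraries against 20709 for PHC1. PHC1 also overlaps M6PR on the opposite strand.

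PHC2 had 4.96, 5.41 and 5.42 CPM in the controls and 8.17, 12.7 and 8.34 CPM in ASO-L1. The control libraries lay close together and every ASO-L1 library was above them, the second by the most. The mean rose from 5.26 ± 0.262 to 9.73 ± 2.55 CPM, with a log2 fold change of 0.88 ± 0.18 SE (95% interval 0.49 to 1.27, edgeR adjusted p = 0.00517). The differences by number were 0.71, 1.22 and 0.62, on 133 to 166 reads per control library and 198 to 289 per ASO-L1 library. The call was lost only without both libraries of replicate 1, where the adjusted p was 0.0532.

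PHC3, the remaining PHC paralog, had 17, 21.9 and 19.7 CPM in the controls and 15.3, 13.2 and 16.4 CPM in ASO-L1. The groups did not overlap, although control library 1 and ASO-L1 library 3 were close. The log2 fold change was -0.38 ± 0.12 SE (95% interval -0.65 to -0.11, edgeR adjusted p = 0.0341). This call was near the threshold. It was lost without SO-L1 library 2 (edgeR adjusted p = 0.0998), SO-L1 library 3 (0.10), ASO-L1 library 1 (0.0767) or ASO-L1 library 2 (0.0630).

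**Figure D2:**
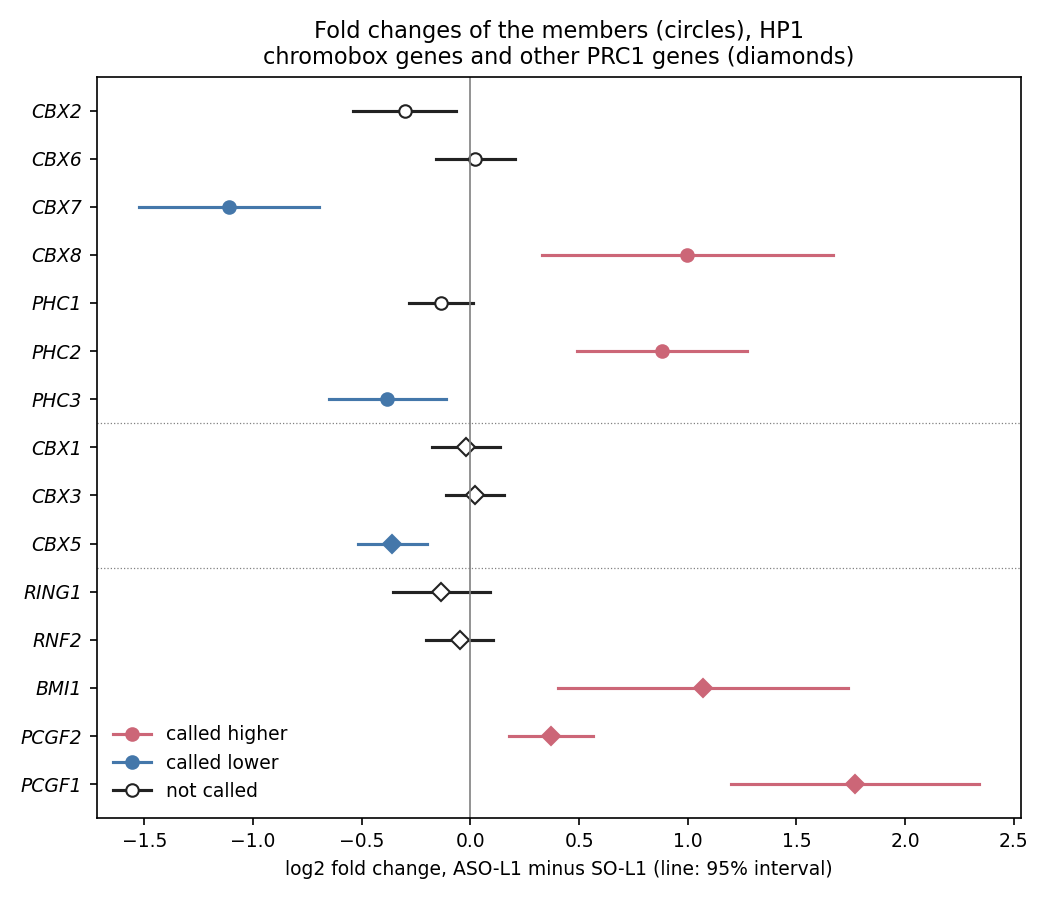
Log2 fold change of ASO-L1 over SO-L1 with 95% intervals on the horizontal axis, for the 7 paralogs (circles) and, as diamonds, for the HP1 genes CBX1, CBX3 and CBX5, and the PRC1 genes RING1, RNF2, BMI1, PCGF2 and PCGF1. Red marks genes called higher, blue genes called lower, and open symbols genes not called by edgeR. CBX7 lies furthest to the left at -1.11, CBX8 and PHC2 lie to the right at 1.0 and 0.88, and the intervals of CBX6 and PHC1 include 0.

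ASO-L1 library 2 gave the most extreme ASO-L1 level of CBX2, CBX7, CBX8, PHC1, PHC2 and PHC3, each in the direction in which that gene's ASO-L1 mean differed from the control mean. The same library lay furthest from the controls on the first principal component of all tested genes, which held 68.8% of the variance, with a score of 58.9 beside 22.3 and 18.9 for ASO-L1 libraries 1 and 3. Control library 2 lay nearest to ASO-L1 on that axis, at -21.3 against -38.3 and -40.5, and it had the lowest control level of CBX2 and CBX7 and the highest of CBX8. Its control PHC3 level, by contrast, was the highest and so furthest from ASO-L1. Without both libraries numbered 2, CBX7, CBX8 and PHC2 were still called by edgeR, PHC3 was not (adjusted p = 0.0602), and CBX2 was called lower (0.000121).

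The authors' deposited table of the same comparison listed all 7 genes, and 3 of them had an adjusted p under 0.05 in it, where 21.4% of its 20964 genes did. In the authors' deposited table CBX7 had a log2 fold change of -1.11 (adjusted p = 0.00647), PHC2 0.83 (0.0124) and PHC3 -0.39 (0.0496). CBX8, at 0.94, had an adjusted p of 0.0592 in the authors' deposited table. CBX2 stood at -0.32 (0.0806), PHC1 at -0.15 (0.191) and CBX6 at 0.01 (0.943) in the authors' deposited table. CBX8 was thus the 1 gene of the 7 whose call differed between the authors' deposited table and the edgeR fit. In the authors' deposited table of batch-corrected log2 values, CBX2 had 6.20, 6.19 and 6.22 in the controls and 5.90, 5.88 and 5.88 in ASO-L1. The groups did not overlap there for CBX2, nor for CBX7, CBX8, PHC1, PHC2 and PHC3, whereas those of CBX6 did. The share of all genes without overlap in these corrected values was not computed, so this is a description.

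The order of the paralogs by level was read per kilobase of exon (CPM per kb, merged exons of GENCODE v29 on GRCh38), since counts grow with transcript length. In the control group PHC1 stood highest at 21.6 ± 1.16 CPM per kb, then CBX2 at 12.9 ± 1.47 and CBX6 at 2.96 ± 0.0791. PHC3 followed at 1.15 ± 0.146 and PHC2 at 1.06 ± 0.0526 CPM per kb, whose libraries overlapped. CBX7 at 0.615 ± 0.114 and CBX8 at 0.257 ± 0.0713 CPM per kb came last, so the paralog best known from pluripotent cells was among the least abundant here.

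In ASO-L1 the first 3 kept their places, with PHC1 at 19.6 ± 0.907, CBX2 at 10.5 ± 1.29 and CBX6 at 3.0 ± 0.142 CPM per kb. PHC2, at 1.96 ± 0.513, then lay above PHC3, at 0.882 ± 0.0963 CPM per kb, and their libraries did not overlap. CBX8, at 0.515 ± 0.170, lay above CBX7, at 0.285 ± 0.0304 CPM per kb. With the longest coding transcript as the length the last pair overlapped, with 0.420 to 0.775 CPM per kb for CBX8 and 0.462 to 0.573 for CBX7, so their order in ASO-L1 depends on the transcript model. In the controls that length put CBX7 at 1.12 and PHC2 at 1.36 CPM per kb, with libraries that overlapped. Which isoforms the cells use was not measured.

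Shares were taken of the summed CPM per kb of the 4 CBX members, which was 16.8 ± 1.47 in SO-L1 and 14.3 ± 1.24 in ASO-L1, with libraries that overlapped. CBX2 made up 76.9%, 75.0% and 79.2% of the sum in the controls and 75.0%, 69.9% and 74.8% in ASO-L1, and was the main CBX member in each library. CBX6 had 17.7% ± 1.83 and 21.1% ± 1.48. CBX7 had 3.66% ± 0.568 in the controls and 1.99% ± 0.0469 in ASO-L1. For CBX8 the shares were 1.0%, 2.06% and 1.56% in the controls and 3.12%, 5.46% and 2.49% in ASO-L1, so CBX7 exceeded CBX8 in each control library and CBX8 exceeded CBX7 in each ASO-L1 library on this length. Of the PHC sum, PHC1 held 90.7% ± 0.634 in the controls and 87.3% ± 2.16 in ASO-L1, and PHC2 held 4.45% ± 0.121 and 8.73% ± 2.49. PHC1 thus remained the main PHC transcript of both groups. These shares carry no test and describe RNA, not protein.

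**Figure D3:**
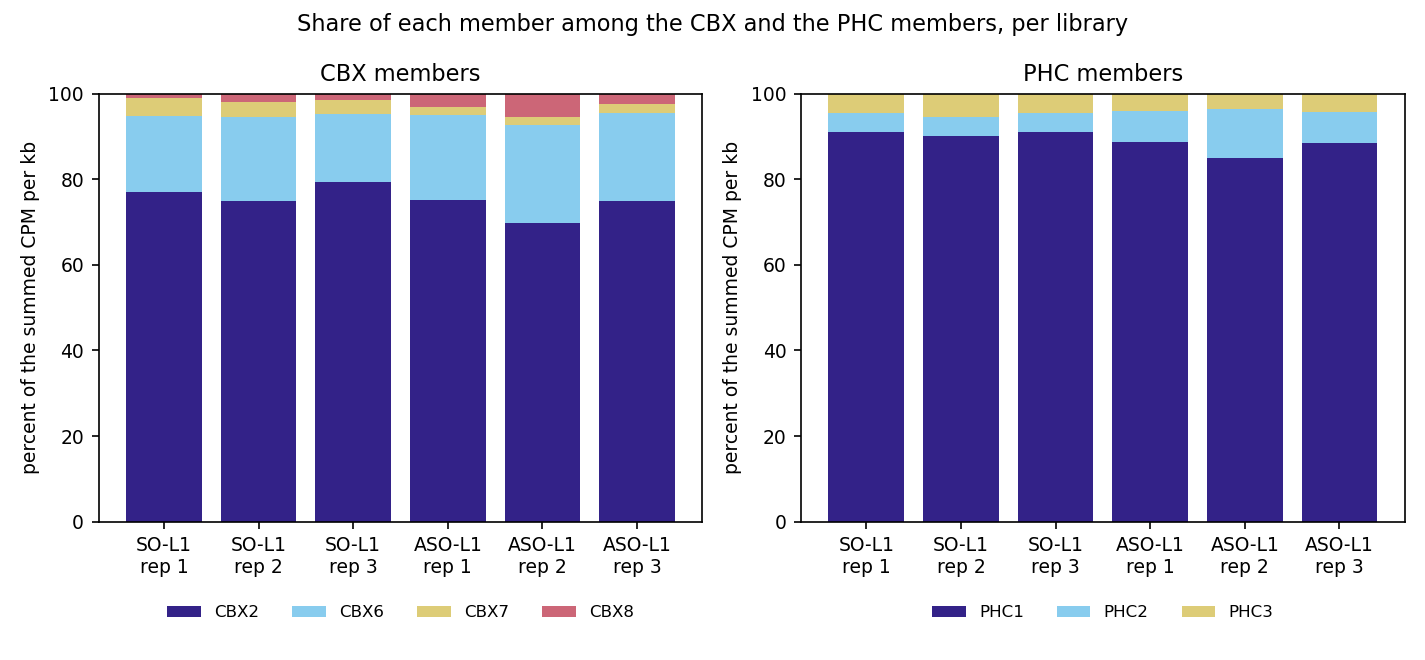
Share of each paralog in the summed CPM per kb of the 4 CBX members and of the 3 PHC genes, in percent, for each of the 6 libraries as stacked bars that start at 0. CBX2 and PHC1 take the largest share in each of the 6 libraries, with the lowest CBX2 share, 69.9%, in ASO-L1 library 2.

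A ratio of 2 paralogs within a library does not depend on how that library was scaled, and gene length cancels from its difference between groups. The log2 ratio of CBX7 to CBX8 counts was 2.90, 1.55 and 1.92 in the controls and 0.18, -0.64 and 0.56 in ASO-L1. It moved by -2.09, from 2.12 ± 0.698 to 0.03 ± 0.611, the widest of the 6 ratios computed. The log2 ratio of CBX7 to CBX2 went from -4.01 ± 0.224 to -4.81 ± 0.0472, and the ratio of CBX7 to CBX6 moved by -1.12.

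The log2 ratio of PHC2 to PHC1 was -4.65, -4.59 and -4.68 in the controls and -3.89, -3.16 and -3.89 in ASO-L1, a difference of 0.99. PHC2 to PHC3 moved by 1.24 and PHC3 to PHC1 by -0.25. In each of the 6 ratios the groups did not overlap, although for PHC3 to PHC1 they lay close. Each ratio holds at least 1 paralog called above, and 50.9% of single tested genes did not overlap. The share for ratios of other gene pairs was not computed, so this count is a description. An exact two-sided permutation test of 3 against 3 libraries gave p = 0.1 for each of them (0.1 after Benjamini-Hochberg adjustment over the 6), the smallest p this design allows.

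**Figure D4:**
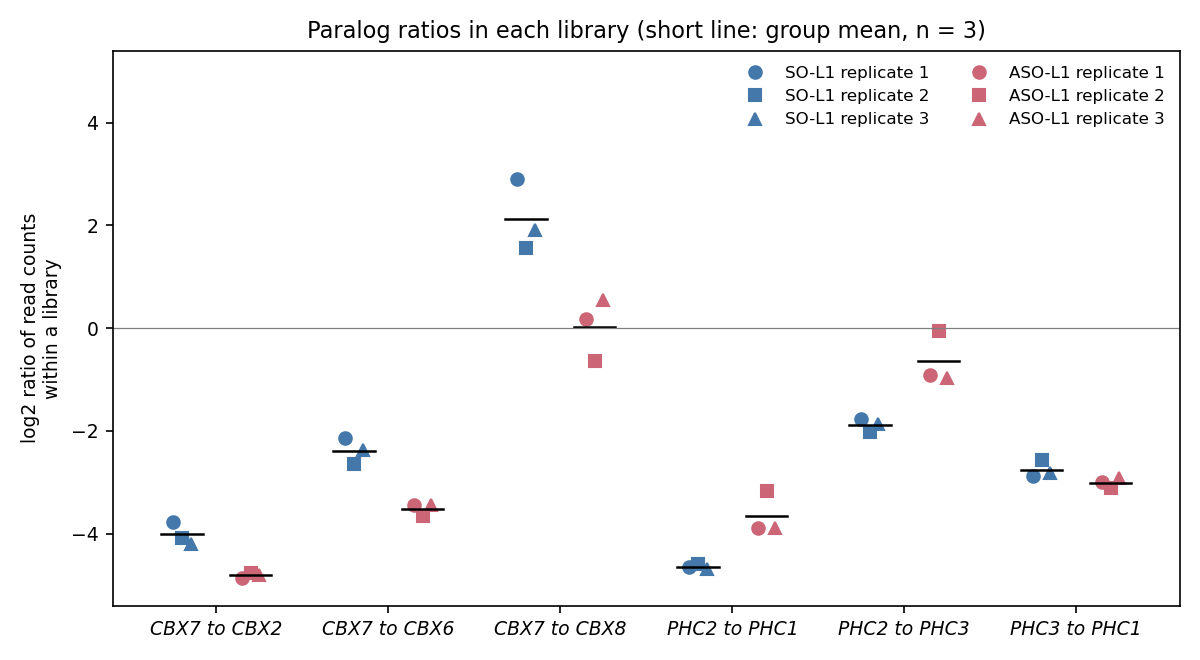
Log2 ratios of 6 pairs of paralogs within each library, with points for the 3 SO-L1 and the 3 ASO-L1 libraries and lines for the group means. The ratio of CBX7 to CBX8 goes from a mean of 2.12 to 0.03, and the ratio of PHC2 to PHC3 moves up by 1.24, without overlap.

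Promoter sequences were looked up for the paralogs that were called, to show what lies upstream of genes that moved in opposite directions. The RefSeq promoter table (GRCh38.p14) matched 5 of the 7 genes: CBX6, CBX7, PHC1, PHC2 and PHC3. The 250 bases before the start of each called gene with an entry are printed on the gene's strand, 5′ to 3′, with each CG dinucleotide in capitals. They are CBX7 at chr22:39152681-39152930, PHC2 from an upstream start at chr1:33431096-33431345 and from an internal start at chr1:33349900-33350149, and PHC3 at chr3:170181734-170181983, all on the minus strand.
CBX7: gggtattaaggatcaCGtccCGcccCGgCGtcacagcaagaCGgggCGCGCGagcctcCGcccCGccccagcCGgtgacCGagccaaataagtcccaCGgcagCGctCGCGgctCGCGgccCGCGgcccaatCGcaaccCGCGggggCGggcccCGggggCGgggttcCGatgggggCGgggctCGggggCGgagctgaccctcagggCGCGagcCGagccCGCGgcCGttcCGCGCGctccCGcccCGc
PHC2, upstream start: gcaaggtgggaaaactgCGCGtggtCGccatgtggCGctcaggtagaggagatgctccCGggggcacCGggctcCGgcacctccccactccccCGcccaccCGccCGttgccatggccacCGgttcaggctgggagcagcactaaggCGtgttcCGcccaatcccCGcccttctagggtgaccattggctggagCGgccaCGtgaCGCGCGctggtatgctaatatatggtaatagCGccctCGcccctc
PHC2, internal start: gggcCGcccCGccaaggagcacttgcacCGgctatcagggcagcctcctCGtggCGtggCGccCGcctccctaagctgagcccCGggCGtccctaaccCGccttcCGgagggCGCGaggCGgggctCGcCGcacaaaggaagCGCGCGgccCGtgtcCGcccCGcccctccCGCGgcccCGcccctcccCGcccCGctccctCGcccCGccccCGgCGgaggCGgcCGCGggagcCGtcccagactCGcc
PHC3: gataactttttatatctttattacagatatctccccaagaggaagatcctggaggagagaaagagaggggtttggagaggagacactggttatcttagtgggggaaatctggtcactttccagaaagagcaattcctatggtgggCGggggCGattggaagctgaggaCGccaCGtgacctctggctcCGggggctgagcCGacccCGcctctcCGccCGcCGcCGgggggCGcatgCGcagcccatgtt

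The CBX7 window is 78.8% G and C and holds 41 CG dinucleotides, the upstream PHC2 window 66.8% and 21, the internal PHC2 window 80.4% and 36, and the PHC3 window 56.8% and 13. The median over all 35116 RefSeq windows of this length is 58% and 11. The letters GGGCGG, searched on both strands and overlapping a CG by their own spelling, occur 8 times in the CBX7 window, 4 and 6 times in the PHC2 windows and 2 times in the PHC3 window, and 42.6% of all windows hold them at least 1 time. CACGTG, the E-box letters, which also contain a CG, is found in the upstream PHC2 window and in the PHC3 window, and in 6.35% of all windows. CCAAT is found in the CBX7, upstream PHC2 and PHC3 windows and in 32% of all windows, and TGACGTCA is in none of the 4 windows printed and in 1.65% of all. CBX7, which fell, and the internal start of PHC2, which rose, thus both have windows rich in CG. Which PHC2 start the reads came from was not measured.

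CBX2 and CBX8 lie next to each other on chromosome 17, and CBX6 and CBX7 lie on chromosome 22. CBX8 rose, while the estimate for its neighbour CBX2 was below 0 and not called. In the order of the RefSeq coding genes, the nearest tested coding gene on each side of the members gave 12 genes outside the list. Of these 2 were called higher and 2 lower, where 18.0% and 15.7% of all tested genes were.

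PDGFB, a growth factor gene next to CBX7, rose from 1.73 ± 0.300 to 4.13 ± 1.25 CPM (log2 fold change 1.25 ± 0.25 SE, edgeR adjusted p = 0.00486), opposite to CBX7. On the far side of CBX7, the cytidine deaminase gene APOBEC3H had a log2 fold change of -0.54 ± 0.28 SE and was not called (edgeR adjusted p = 0.160; 0.0309 with the replicate block). M6PR, a mannose 6-phosphate receptor gene that overlaps PHC1 on the other strand, rose from 135 ± 13.2 to 168 ± 12.3 CPM (log2 fold change 0.32 ± 0.08 SE, edgeR adjusted p = 0.0156), a call lost without SO-L1 library 1 (0.0767) or SO-L1 library 3 (0.0781). Whether reads were counted by strand is not given in the sources used here, so the part of M6PR reads in PHC1 counts cannot be told apart. TRIM62, a RING-finger gene beside PHC2, fell with a log2 fold change of -0.34 ± 0.09 SE (edgeR adjusted p = 0.0198), a call lost without SO-L1 library 1 (0.0729), SO-L1 library 3 (0.0732) or ASO-L1 library 1 (0.0556).

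NPTXR, a neuronal pentraxin receptor gene beside CBX6, fell with a log2 fold change of -0.35 ± 0.10 SE (edgeR adjusted p = 0.0237). It lost its call without SO-L1 library 1 (0.0533), SO-L1 library 2 (0.0629), ASO-L1 library 1 (0.0692) or ASO-L1 library 3 (0.0699). Of the other neighbours, 6 more were tested and not called: RBFOX3 at -0.10, APOBEC3B at -0.20, ZSCAN20 at -0.02, PRKCI at 0.14, A2ML1 at -0.54 and GPR160 at -0.30 on the log2 scale. The last 2 were called lower with the replicate block (edgeR adjusted p = 0.000773 for A2ML1 and 0.00457 for GPR160). A2ML1 lies next to PHC1, and GPR160 next to PHC3. A2ML1 also passed without SO-L1 library 2 (0.0108) or ASO-L1 library 3 (0.0481), and GPR160 without ASO-L1 library 3 (0.0385).

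Of the other PRC1 subunits and cofactors, 30 of 31 were tested, and 7 were called higher and 4 lower. Their median log2 fold change was -0.02. Of all tested genes, 18.0% were called higher and 15.7% lower. The catalytic RING proteins were not called. RNF2 had 53.0 ± 2.08 CPM in the controls and 51.2 ± 1.42 in ASO-L1 (log2 fold change -0.05 ± 0.07 SE, edgeR adjusted p = 0.610), and RING1 16.1 ± 0.919 and 14.6 ± 1.15 (-0.13 ± 0.10 SE, 0.328). The PCGF subunit BMI1, which pairs with RING proteins in canonical PRC1, had 16.3, 25.4 and 16.6 CPM in the controls and 33.6, 56.7 and 31.9 CPM in ASO-L1, with library 2 highest in both groups and no overlap. It rose by a log2 fold change of 1.07 ± 0.28 SE (edgeR adjusted p = 0.0274), a call lost without SO-L1 library 1 (0.0501) or SO-L1 library 3 (0.0809) and with no filter on low counts (0.128).

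The paralog PCGF1, of a variant PRC1 that lacks CBX and PHC proteins, rose from 8.98 ± 2.11 to 30.5 ± 9.66 CPM (log2 fold change 1.77 ± 0.25 SE, edgeR adjusted p = 0.00282). BCORL1, a partner of PCGF1, fell from 27.6 ± 3.08 to 20.1 ± 1.38 CPM (-0.46 ± 0.10 SE, edgeR adjusted p = 0.00878). BCOR, of the same list, rose from 166 ± 5.19 to 193 ± 2.36 CPM (0.22 ± 0.06 SE, edgeR adjusted p = 0.0162). SCML2, a SAM- and MBT-domain subunit, fell from 47.6 ± 1.82 to 33.3 ± 4.07 CPM (-0.51 ± 0.10 SE, edgeR adjusted p = 0.00405), and the adaptor DCAF7 from 155 ± 5.10 to 114 ± 11.7 CPM (-0.43 ± 0.08 SE, edgeR adjusted p = 0.00367). Without SO-L1 library 1, and also without SO-L1 library 3, 2 in place of 7 of the list were called higher. Those fits called 18.6% and 17.5% of all tested genes, against 33.7% with all libraries. With the replicate block 7 in place of 4 were called lower, in a fit that called 45.7% of all tested genes.

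The 3 HP1 chromobox genes encode chromodomain relatives that read another methylated lysine of histone H3, in heterochromatin. CBX5 fell from 350 ± 18.7 to 273 ± 21.0 CPM (log2 fold change -0.36 ± 0.07 SE, edgeR adjusted p = 0.00526). CBX3 stood at 0.02 ± 0.06 SE and CBX1 at -0.02 ± 0.07 SE, neither called. Of 7 tested genes in a list of other SAM-domain and MBT relatives of Polycomb proteins, 3 fell: L3MBTL1 (log2 fold change -0.68 ± 0.16 SE, edgeR adjusted p = 0.00906), MBTD1 (-0.33 ± 0.09 SE, 0.0153) and SAMD11 (-0.72 ± 0.22 SE, 0.0291). The median over the 7 was -0.33, and 15.7% of all tested genes were called lower. SFMBT2, at -0.38 ± 0.16 SE, was called only with the replicate block (edgeR adjusted p = 0.0162) or without ASO-L1 library 1 (0.0499), apart from a fit with no filter. Without SO-L1 library 1, and likewise without SO-L1 library 3, L3MBTL1 was the 1 gene of this list still called. Of all tested genes, 18.6% and 17.5% were called in those fits. SAMD11 was also lost without ASO-L1 library 2 (0.0612).

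PRC2 writes the mark that CBX proteins read. Of its 14 tested subunits and cofactors 2 rose and 3 fell, with a median of -0.06. Over all tested genes 18.0% were called higher and 15.7% lower. The 2 that rose were PHF19 and SUZ12, the latter with a log2 fold change of 0.19 ± 0.06 SE (edgeR adjusted p = 0.0418). The catalytic subunit EZH2 had a log2 fold change of -0.30 ± 0.10 SE (edgeR adjusted p = 0.0407), the accessory subunits AEBP2 -0.32 ± 0.08 SE (0.0111) and PHF19 0.27 ± 0.07 SE (0.0153), and the histone-binding RBBP4 -0.24 ± 0.07 SE (0.0216). Without SO-L1 library 3 the calls of EZH2 (edgeR adjusted p = 0.116), PHF19 (0.0749) and RBBP4 (0.0823) were lost. EZH2 was also lost without SO-L1 library 1 (0.142) or SO-L1 library 2 (0.0540), and RBBP4 without SO-L1 library 1 (0.0719). With the replicate block 4 of the list were called higher and 6 lower, in a fit that called 45.7% of all tested genes.

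The deubiquitinases that remove the PRC1 mark from H2A, with the partners of the BAP1 complex, had 3 of 14 tested genes called higher. Their median was 0.17, and 18.0% of all tested genes were called higher. USP21 rose from 12.9 ± 0.824 to 19.2 ± 3.86 CPM (log2 fold change 0.57 ± 0.14 SE, edgeR adjusted p = 0.0115). KDM1B, in the list as a partner, and MYSM1 rose by 0.34 ± 0.10 SE (0.0203) and 0.21 ± 0.07 SE (0.0322). Both of these were lost without SO-L1 library 1 (0.0704 and 0.118), SO-L1 library 3 (0.0848 and 0.103) or ASO-L1 library 1 (0.0603 and 0.0983), and MYSM1 also without ASO-L1 library 3 (0.0632), with upper quartile factors (0.0725) and with library totals alone (0.0706). ASXL1, at 0.20 ± 0.08 SE, was called with the replicate block (edgeR adjusted p = 0.0321) and without ASO-L1 library 2 (0.0313). With the block 6 of the 14 were called higher, in a fit that called 45.7% of all tested genes.

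The cell cycle inhibitors of the INK4 and ARF locus are classical targets of CBX7 and BMI1. A list of these and other inhibitors of cyclin-dependent kinases had 7 tested genes, 4 of the INK4 family and the CIP and KIP genes CDKN1A, CDKN1B and CDKN1C. Of the 7, 5 were called higher, but CDKN2A and CDKN2C passed the filter on low counts only through ASO-L1, where they are higher, so this count is a description. Among genes with a CPM above 1 in at least 3 libraries, 3 of 5 were called higher, in a fit that called 38.1% of all tested genes. CDKN1B had a log2 fold change of 0.31 (edgeR adjusted p = 0.0495), and CDKN1A and CDKN1C, at -0.27 and -0.14, were not called. With the replicate block 1 of the 7 was called lower, in a fit that called 45.7% of all tested genes. CDKN2A had 0.480, 0.407 and 0.326 CPM in the controls and 0.784, 1.58 and 0.714 CPM in ASO-L1. The log2 fold change was 1.31 ± 0.39 SE (edgeR adjusted p = 0.0272). Its groups did not overlap, but the level was low throughout, and the call was lost without any of SO-L1 library 1 (0.0680), 2 (0.0601) or 3 (0.101) or ASO-L1 library 2 (0.0997).

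CDKN2B rose from 1.99 ± 1.28 to 7.09 ± 3.01 CPM (log2 fold change 1.86 ± 0.47 SE, edgeR adjusted p = 0.0223; 0.0768 without SO-L1 library 3 and 0.0597 with no filter on low counts). For CDKN2C, below the filter's minimum in each control library, the levels were 0.199 ± 0.0881 and 1.88 ± 1.49 CPM. CDKN2D rose from 5.53 ± 0.700 to 9.93 ± 1.92 CPM (log2 fold change 0.84 ± 0.16 SE, edgeR adjusted p = 0.00457). CDKN2A and CDKN2B lie in the INK4 and ARF locus, whereas CDKN2C and CDKN2D are INK4 genes elsewhere in the genome. Of the list, 2 were called higher without SO-L1 library 3, and 3 without SO-L1 library 1, SO-L1 library 2 or ASO-L1 library 2. In that order, these fits called 17.5%, 18.6%, 30.3% and 27.9% of all tested genes.

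Among developmental regulators known as Polycomb targets in embryonic stem cells, 49 of 89 passed the filter. Genes silent in the control group could pass only through ASO-L1, so their count is given as a description: 23 were called higher and 3 lower. PAX6, a neural and eye regulator, rose from 1.13 ± 0.157 to 3.78 ± 1.05 CPM, and OLIG2, of the oligodendrocyte lineage, from 1.07 ± 0.0820 to 3.14 ± 0.586 CPM. HOXB1, a hindbrain HOX gene, fell from 13.9 ± 3.33 to 5.39 ± 0.850 CPM. The edgeR adjusted p-values were 0.00183, 0.00174 and 0.00173. Without SO-L1 library 3, 11 of the list were called higher, in a fit that called 17.5% of all tested genes.

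The genes with the pattern most like each called paralog over the 6 libraries were found among at least 12975 tested genes, by the root mean square difference in log2 CPM centred on each gene's mean. For CBX7 they were CTNNBIP1 (0.136), LDHD (0.139) and TCN2 (0.148), and for CBX8 AC025335.1 (0.0873), ENDOD1 (0.0994) and AC005943.5 (0.132). For PHC2 they were GLUL (0.0345), KCTD6 (0.0385) and AGAP3 (0.0394), and for PHC3 LHFPL2 (0.0324) and TMEM131 (0.0365). PHC2 and PHC3 had smaller distances than CBX7 and CBX8, and more reads over the 6 libraries (1198 and 2846 against 569 and 253). Between CBX7 and CBX8 the order was the other way, since CBX8 had fewer reads and smaller distances. Whether distance depends on counts was not tested.

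Libraries held 23330875 to 31164287 counts. Core pluripotency markers were high, with POU5F1 at 1265 ± 67.7 CPM in SO-L1 and 1136 ± 79.4 in ASO-L1. KLF17, a defining marker of the naive state, was low, at 0.544 to 0.936 CPM in the controls and 0.263 to 0.552 CPM in ASO-L1. ARGFX and KHDC1L of the naive list were also under 1 CPM in each library. The others were higher, among them NLRP7 at 84.5 to 110, DNMT3L at 76.9 to 82.7 and KHDC3L at 50.8 to 73.5 CPM in the controls. The naive label is used only as the submitters gave it. Naive markers summed to 721 to 802 CPM in the controls and 652 to 680 in ASO-L1 (2 of 14 tested called higher and 5 lower), and primed markers to 854 to 897 and 1048 to 1108 CPM (5 of 13 higher, 1 lower), of which VIM alone held 114 to 151 CPM in the controls and 282 to 360 CPM in ASO-L1. Trophectoderm markers summed to 1260 to 1309 and 1489 to 1797 CPM (6 of 11 higher). Among the called genes, DLX5 and CDX2, and DUSP6 of the primed list, passed the filter only through ASO-L1, so these counts are a description. KRT8 alone held 1037 to 1074 CPM of that sum in the controls and 1223 to 1472 CPM in ASO-L1. Fibroblast markers summed to 528 to 606 and 658 to 794 CPM (4 of 12 higher), with FAP at 0 reads. The naive, primed, trophectoderm and fibroblast sums did not overlap between the groups, as was so for 50.9% of single tested genes. Without VIM the primed sums overlapped, and without TAGLN and TWIST1 the fibroblast sums did. Primitive endoderm sums, 114 to 124 CPM in the controls and 115 to 119 CPM in ASO-L1, and core pluripotency sums overlapped. The part of these markers in the paralogs' differences was not tested. In bulk RNA a change in the share of cells of a type cannot be told apart from a change in RNA per cell.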

How the data were processed

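RNA-seq was measured in 6 libraries, 3 per group, grouped by the transfection label. The deposited counts are raw reads per gene symbol, after removal of duplicates per the table's title. Tools listed without roles, per the submitters' processing notes, were TopHat2 2.0.13, Subread 1.5.0 with featureCounts and Trim Galore 0.4.0, with the build hg19. The annotation, the strand setting and the treatment of shared reads were not given in the sources used here. The authors' deposited comparison table holds, per the file headers, log2 fold changes, p-values and adjusted p-values, and also t and log-odds scores, which were not used. A deposited table of log2 values is batch-corrected per its title, by a method not given in the sources used here.

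Genes were kept with filterByExpr (minimum count 10, minimum total 15) and tested with the quasi-likelihood test of edgeR 4.0.16 with TMM factors, robust dispersion and no replicate term, two-sided, called at an adjusted p under 0.05 over 16873 genes. The script was tested on simulated data. The SE is the log2 fold change over the square root of F. The common biological coefficient of variation was 10.2%. Correlations of the deviations from the group means were 0.102, 0.377 and 0.211 for numbers 1, 2 and 3, each over 0.1, so the numbers were taken as pairs, although SO-L1 library 1 correlated more with ASO-L1 library 3 (0.156). Alternatives used DESeq2 1.42.0, limma 3.58.1 (voom), other factors and filters, a replicate block, a test against a 1.2-fold change and left-out libraries. Lengths, gene overlaps and shared 50-base words came from GENCODE v29 on GRCh38, gene order and promoters from RefSeq (GRCh38.p14). Members and lists were chosen with earlier results of these data known. Named were all 7 members, up to 4 genes with the smallest p per pathway list, RING1, RNF2 and BMI1, the neighbours and the 3 genes most alike. BCOR and SUZ12 were named outside these rules, and the alternatives were not read gene by gene for them. 3 genes that these rules name are not reported here.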

Additional observations from a re-analysis of the deposited data

How the results depend on the processing

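Over the 7 paralogs and 19 alternatives, 110 of 133 values kept their side of the threshold, 15 lost a call, 8 gained one and 0 called values changed sign. Against 2 paralogs called higher and 2 lower, the test against a 1.2-fold change called 1 and 1, where 12.2% of all genes were called. The pathway lists together held 124 tested genes, of which the edgeR fit called 40 higher and 14 lower. That fit called 18.0% of all genes higher and 15.7% lower. Of the 40, 23 are developmental regulators and 5 inhibitors of cyclin-dependent kinases, lists where genes could pass the filter only through ASO-L1. Pathway counts are therefore a description. The test against a 1.2-fold change called 21 pathway genes higher and 3 lower. It called 1 neighbour higher and 0 lower, with 1 neighbour lower at an unadjusted p under 0.05 (2 and 2 as reported). With the replicate block, 24 pathway genes and 5 neighbours were called lower, and 45.7% of all genes were called. The block added CBX2 to the paralogs called and lost none of them. With no filter 4 neighbours were called lower, where 18.3% of all genes were called. Leaving out a library, or both libraries of a number, gave 0 to 2 paralogs higher and 0 to 3 lower, 15 to 50 pathway genes higher and 2 to 19 lower, and 0 to 3 neighbours higher and 0 to 4 lower. Over all tested genes, 18.6%, 30.3% and 17.5% were called without SO-L1 library 1, 2 or 3. Without ASO-L1 library 1, 2 or 3 the shares were 25.9%, 27.9% and 31%. Without both libraries numbered 2 or 3 they were 41.7% and 16.9%. Of the paralogs, 0 were called by edgeR only without both libraries of replicate 1, where 1 was higher and 2 lower at an unadjusted p under 0.05, and 6.95% of all genes were called. Depth limits CBX8 most, with 23 to 67 reads per library.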
